A study of Arabidopsis thaliana and Arabidopsis thaliana x Arabidopsis arenosa and Arabidopsis arenosa with 18 samples.

Results

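The genes described here encode proteins of the cytosolic ribosome of Arabidopsis: 45 loci chosen by a fixed list from the 33602 loci of the gene count table, 23 of the large subunit, 16 of the small subunit and 6 of the P stalk, in 24 protein families. All 45 were found in the table and all 45 passed the filter on low counts in each of 9 comparisons. RNA was sequenced from seeds 3 days after pollination. Col control seeds came from a male-sterile Col-0 mother (ColA9) crossed with Col-0 pollen, and C24 control seeds from the matching C24 line (C24A9) crossed with C24. The Col hybrid and C24 hybrid seeds had A. thaliana mothers of the same accessions, hemizygous for the male-sterility construct, and pollen of diploid A. arenosa var. Strecno, a wild relative. A. arenosa control seeds came from A. arenosa crossed with itself, and whole siliques (the fruit with its seeds) were taken from both hybrid crosses. The series calls the cross on Col-0 incompatible and the cross on C24 compatible. Each of the 7 groups had 2 libraries. In the A. thaliana controls each library is the sum of 2 sample records, per the file headers, and 1 of the 2 is titled single. What single means is not stated. Every other library is 1 record, so in hybrids against A. thaliana controls this difference cannot be told apart from that of the cross. For A. arenosa, growth descriptions name 1 plant in the records of hybrid and A. thaliana control seeds and a pair of plants in those of siliques and A. arenosa seeds, and no label says that the 2 libraries of a group came from separate plants, so the p-values reflect no more than the variation among these libraries, which may be technical.

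Ribosomal proteins assemble with ribosomal RNA into a small subunit, which reads the messenger RNA, and a large subunit, which joins the amino acids. The P stalk, a P0 protein carrying P1 and P2 proteins, projects from the large subunit and recruits the GTPases that drive translation. In Arabidopsis nearly every ribosomal protein is encoded by a small family of similar genes, called paralogs here, and dividing tissues such as the young embryo and endosperm make ribosomes at a high rate. Known roles of single members include S6, the small subunit protein phosphorylated by S6 kinase below the TOR kinase, PGY2, an L9 protein whose mutant enhances leaf polarity defects, RPL24B, which helps ribosomes reinitiate after upstream reading frames, and RPS5A, whose promoter is widely used to mark dividing cells.

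Upstream of many plant ribosomal protein genes lie short elements called site II (TGGGCC or TGGGCT) and the telo-box (AAACCCTA). In the 250 bases before the annotated gene start, read on both strands with overlapping matches counted, site II was present in 33 of 45 members (73.3%) and in 19.2% of the windows of 27443 nuclear protein-coding genes. The telo-box was present in 5 members (11.1%) and in 4.49% of all windows. The windows of 4 members that the results turn on are shown, 5′ to 3′ on the gene's own strand, from the RefSeq TAIR10.1 genome, with site II elements on either strand in capitals (GGCCCA and AGCCCA are the reverse forms). They are those of RPS6A (chr4:15347805-15348054, minus strand), RPS6B (chr5:3260255-3260504, minus strand), the L4 gene AT3G09630 (chr3:2953443-2953692, plus strand) and PGY2 (chr1:12022975-12023224, plus strand).
RPS6A: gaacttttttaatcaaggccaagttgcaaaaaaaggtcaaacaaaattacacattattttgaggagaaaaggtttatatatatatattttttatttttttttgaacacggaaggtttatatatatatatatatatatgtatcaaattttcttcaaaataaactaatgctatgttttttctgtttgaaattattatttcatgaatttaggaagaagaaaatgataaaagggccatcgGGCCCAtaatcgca
RPS6B: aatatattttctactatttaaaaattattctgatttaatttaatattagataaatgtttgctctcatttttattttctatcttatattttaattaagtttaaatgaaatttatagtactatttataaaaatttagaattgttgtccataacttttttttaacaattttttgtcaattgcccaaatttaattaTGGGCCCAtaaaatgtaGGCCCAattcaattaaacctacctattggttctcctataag
AT3G09630: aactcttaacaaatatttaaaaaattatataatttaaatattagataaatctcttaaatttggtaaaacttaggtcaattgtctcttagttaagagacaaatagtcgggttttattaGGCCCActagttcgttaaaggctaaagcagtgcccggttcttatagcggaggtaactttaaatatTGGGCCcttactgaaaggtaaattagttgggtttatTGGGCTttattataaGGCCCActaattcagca
PGY2: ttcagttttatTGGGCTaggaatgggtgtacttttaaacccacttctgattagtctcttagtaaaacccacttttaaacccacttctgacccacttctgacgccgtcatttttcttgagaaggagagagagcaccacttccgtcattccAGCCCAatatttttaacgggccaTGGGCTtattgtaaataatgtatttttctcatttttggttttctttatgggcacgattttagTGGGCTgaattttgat
None of the 4 windows overlapped another annotated gene. RPS6A held 1 match, RPS6B 3, AT3G09630 4 and PGY2 4, and the 2 S6 windows were 53.5% identical. Of the 12 members called higher in both hybrids, 10 held site II, against 18 of the 27 called higher in neither and 4 of the 8 called lower in either. A match is a string of letters and was not tested as a binding site.

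Between 1.31% and 2.28% of all gene reads in a library fell on the 45 members. The share was 1.59% and 1.67% in Col control libraries 1 and 2 and 1.84% and 2.03% in the Col hybrid. It was 1.83% and 1.79% in the C24 control and 2.19% and 2.11% in the C24 hybrid. In both crosses each hybrid library lay above each control library. A. arenosa libraries were at 2.28% and 1.78%, Col hybrid siliques at 1.91% and 1.31%, and C24 hybrid siliques at 1.6% and 1.77%, so that libraries of these groups overlapped with the rest.

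**Figure D1:**
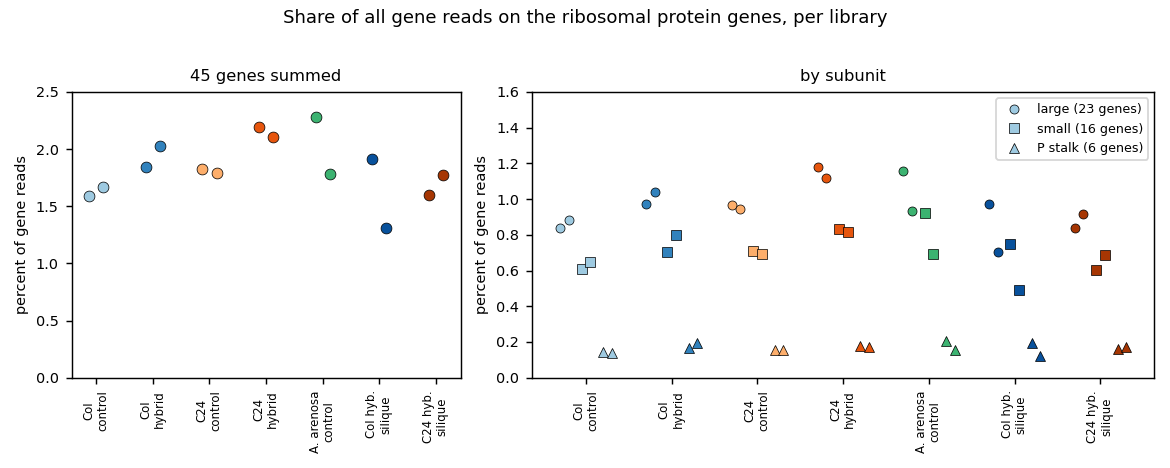
Percent of all gene reads that fell on the 45 ribosomal protein genes (left) and on those of the large subunit, small subunit and P stalk (right), with 1 point per library and 7 groups of 2 libraries on the x axis. The Col hybrid libraries (1.84% and 2.03%) and the C24 hybrid libraries (2.19% and 2.11%) lie above their control libraries.

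Single members differed widely in level. Levels are given in CPM, the usual measure of read counts relative to library size, scaled by trimmed mean of M values over all 14 libraries. Per kilobase of exon, the S8 gene AT5G20290 led the Col control with 741 ± 54.3 CPM (mean ± SD, n = 2 libraries). It was followed by the L19 gene AT1G02780 with 647 ± 18.9, RPL10A with 596 ± 58.0 and the P0 gene AT3G09200 with 564 ± 4.68. AT5G20290 lay above the next gene by more than either SD, while RPL10A lay within its SD of both its neighbours. AT1G02780 led the Col hybrid with 926 ± 81.7, the C24 hybrid with 1027 ± 94.3 and A. arenosa with 1267 ± 153, and in both hybrids AT5G20290 came next within the spread. At the low end of the Col control stood RPL3B with 43.1 ± 5.20, RPL10B with 23.2 ± 1.13 and AT2G40010, the third P0 gene, with 2.73 ± 0.707 per kilobase.

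In Col hybrid seeds, 16 members rose and 2 fell against the Col control, 18 of 45, where 16.8% of all 20552 genes tested were called at an adjusted p under 0.05 (10.4% higher, 6.38% lower). The median log2 fold change of the members was 0.32, against -0.01 for all genes, and 33 of 45 members had a positive value. By subunit, 2 of 6 P stalk genes, 9 of 23 large subunit genes and 5 of 16 small subunit genes rose, and the 2 that fell were both L9 genes. With upper quartile scaling 9 rose and 3 fell, and the median of all genes moved to -0.16, which left the members' median 0.33 above it as before. The count rested on single libraries: it was 5 without Col hybrid 1, 2 without Col hybrid 2, 2 without Col control 1 and 14 without Col control 2, with the lone library of a group then assumed to vary like the other groups. Of the 18, RPS6B alone was called whichever of the 4 libraries was left out.

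In C24 hybrid seeds, 14 members rose and 8 fell against the C24 control, 22 of 45, where 31.8% of all genes were called (16.8% higher, 15.0% lower). The median log2 fold change of the members was 0.16, against 0.00 for all genes. All 8 genes that fell, except RPS5B, belong to the large subunit: AT1G33120, PGY2 and AT4G10450 of the L9 family, RPL10A and RPL10C of the L10 family, RPL23AB and the L27a gene AT1G70600. Without C24 hybrid 1 the count was 8, without C24 hybrid 2 it was 6, without C24 control 1 it was 7 and without C24 control 2 it was 5. Called in each of these 4 fits were RPS6B, AT3G09630, RPL3A, AT1G33120 and AT2G40010.

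The 2 crosses share no library, and 12 members rose in both, which is 75.0% of those that rose in the Col hybrid and 85.7% of those that rose in the C24 hybrid. They are RPS6B and RPS10B, the S2 gene AT2G41840, AT3G09630 of L4, RPL3A, RPL5A, the L8 genes AT2G18020 and AT4G36130, RPL10B, the L18 gene AT5G27850, AT1G02780 of L19 and RPL24A. The L9 genes AT1G33120 and PGY2 fell in both. The sign of the fold change was the same in both crosses for 38 of 45 members, and across the members the fold changes of the crosses had Pearson's r of 0.60, or 0.87 without AT2G40010. Over all 20552 genes, those higher in both made up 72.3% of the genes higher in Col and 45% of those higher in C24, 74.3% of genes had the same sign and r was 0.58. Genes are not independent replicates, and both hybrids carry a genome of A. arenosa counted on the A. thaliana reference.

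**Figure D2:**
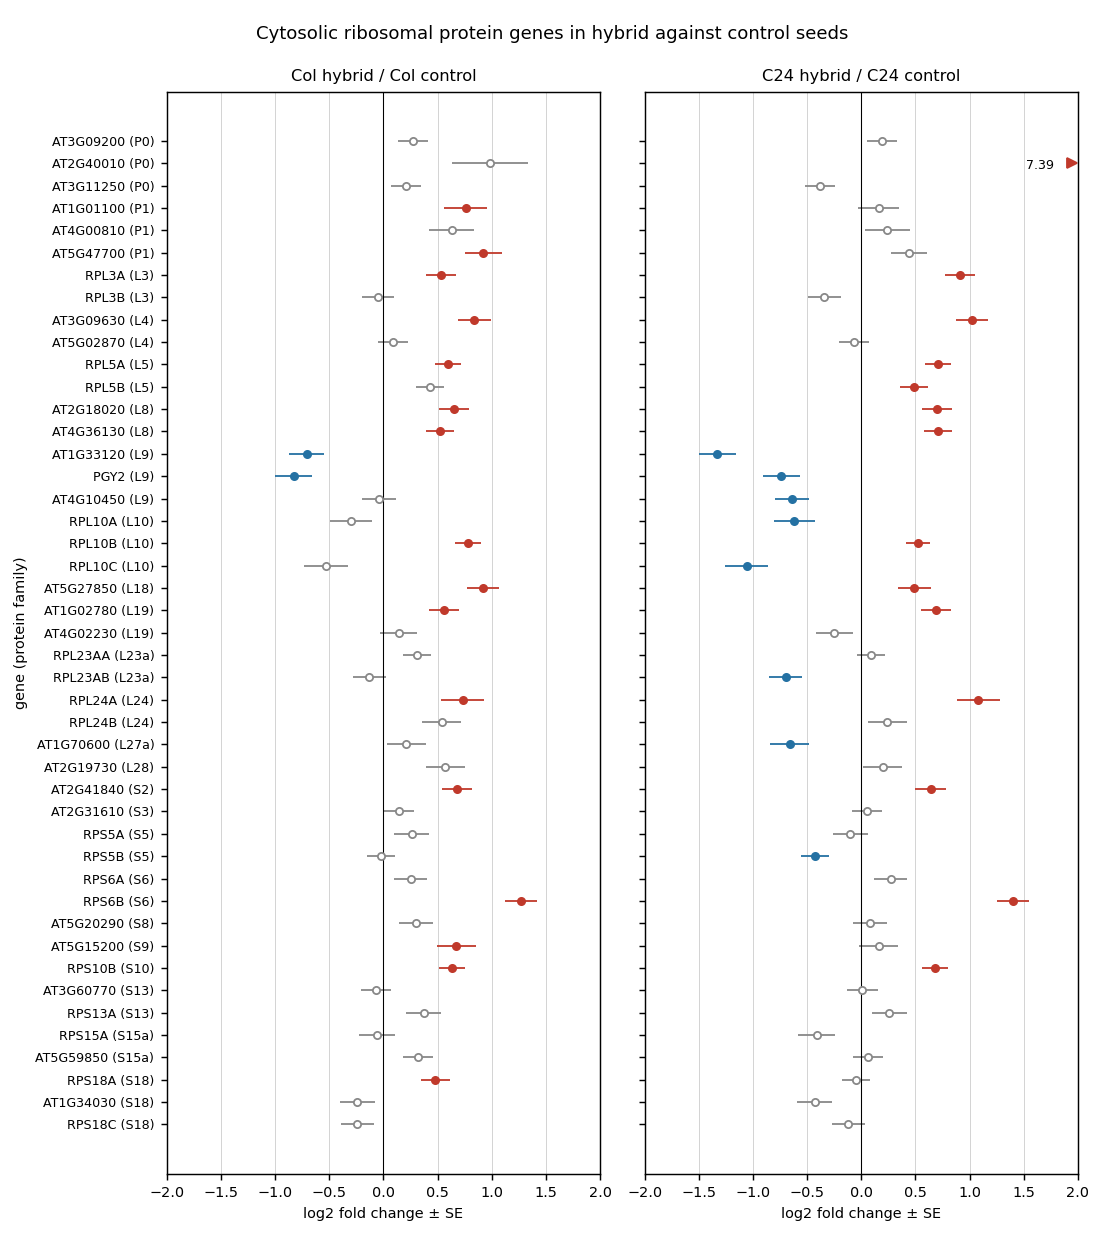
Log2 fold change with its SE for each of the 45 genes, grouped by protein family, in Col hybrid against Col control seeds (left) and C24 hybrid against C24 control seeds (right), with 2 libraries per group. Red points rose and blue points fell at an adjusted p under 0.05, open grey points were not called, and the arrow marks AT2G40010, whose value of 7.39 lies beyond the axis.

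Among the small subunit genes the S6 pair stood out in both crosses. RPS6B was at 378 and 421 CPM in Col control libraries 1 and 2 and at 915 and 955 in the Col hybrid. In the C24 control it was at 457 and 362, and in the C24 hybrid at 1104 and 1033. No hybrid library overlapped with a control library, and RPS6B rose by 1.27 ± 0.15 on the log2 scale in Col (SE, adjusted p = 0.00188, edgeR's quasi-likelihood test) and by 1.40 ± 0.15 in C24 (adjusted p = 0.0005). Its paralog RPS6A, whose coding sequence is 84.7% identical, was at 439 and 470.5 in the Col control, 472 and 577 in the Col hybrid, 576 and 540.4 in the C24 control and 647 and 683 in the C24 hybrid, and was not called in either cross. The S2 gene AT2G41840, of the family of bacterial S5, rose by 0.68 ± 0.14 in Col (adjusted p = 0.0145) and by 0.64 ± 0.14 in C24 (adjusted p = 0.00936), and RPS10B by 0.63 ± 0.12 (adjusted p = 0.0128) and 0.68 ± 0.12 (adjusted p = 0.0044). For both genes the Col call was kept only without Col control 2 and the C24 call was lost in all 4 fits without 1 library (adjusted p in Col up to 0.236 and 0.200, in C24 up to 0.355 and 0.211).

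Among the large subunit genes, AT3G09630 of L4, a protein that lines the exit tunnel, was at 502 and 576 CPM in the Col control and at 1036 and 844 in the Col hybrid. It was at 649 and 648 in the C24 control and at 1434 and 1169.8 in the C24 hybrid. All hybrid libraries lay above all control libraries, and the gene rose by 0.84 ± 0.15 in Col (adjusted p = 0.00957) and by 1.02 ± 0.15 in C24 (adjusted p = 0.00193). The other L4 gene, AT5G02870, was at 458 to 559 in the Col control and 517 to 536 in the Col hybrid, and at 735 to 816 and 698 to 768 in the C24 groups, with overlap in both crosses. The Col call of AT3G09630 was lost without Col hybrid 1 (adjusted p = 0.0977) and without Col control 1 (0.113).

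AT5G27850 of L18 rose from 476 and 562 CPM in the Col control to 898 and 1009 in the Col hybrid, by 0.92 ± 0.15 on the log2 scale (adjusted p = 0.00619), and in C24 by 0.49 ± 0.15 (adjusted p = 0.034). RPL3A, whose protein lies near the peptidyl transferase centre, rose from 874 and 786 in the C24 control to 1699 and 1391 in the C24 hybrid, by 0.91 ± 0.14 (adjusted p = 0.00203). RPL24A rose in C24 by 1.08 ± 0.20 (adjusted p = 0.00451), from 242 and 163 to 381 and 459. RPL10B, the least abundant L10 gene, rose by 0.78 ± 0.12 in Col (adjusted p = 0.0049), from 23.5 and 25.1 to 42.8 and 38.4. Hybrid and control libraries did not overlap for any of these 4 genes in the cross whose values are given. They were named for their calls, so this is no separate evidence. AT5G27850 lost its C24 call in all 4 fits without 1 library (adjusted p from 0.216 to 0.626), and its Col call without Col hybrid 2 (adjusted p = 0.0754) or Col control 1 (0.0851). RPL10B lost its Col call without Col hybrid 1 (0.0741), Col hybrid 2 (0.0522) or Col control 1 (0.0671), and RPL24A its C24 call without C24 hybrid 2 (0.0608) or C24 control 2 (0.0813).

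The L9 genes AT1G33120 and PGY2, of the family of bacterial L6, moved the other way. PGY2 was at 399.5 and 426 CPM in the Col control, 193 and 258 in the Col hybrid, 538 and 535 in the C24 control and 316 and 318 in the C24 hybrid. AT1G33120 was at 308 and 331 in the Col control, 167 and 213 in the Col hybrid, 396 and 448 in the C24 control and 174 and 159.5 in the C24 hybrid. For both genes every hybrid library lay below every control library of its cross. PGY2 fell by 0.83 ± 0.17 in Col (adjusted p = 0.0136) and by 0.74 ± 0.17 in C24 (adjusted p = 0.0104), and AT1G33120 fell by 0.71 ± 0.16 (adjusted p = 0.0226) and 1.33 ± 0.17 (adjusted p = 0.000952). Their coding sequences are 99.1% identical and 56.9% and 62.5% of their 31-base exon words also occur elsewhere in the genome, so the split of reads between them is uncertain, and the L9 family summed to 771 and 836 in the Col control against 424 and 543 in the Col hybrid, and to 1045 and 1092 in the C24 control against 568 and 538 in the C24 hybrid. The calls of PGY2 in C24 and of AT1G33120 in Col were lost in all 4 fits without 1 library. Log2 fold changes in those fits ran from -0.86 to -0.68 for PGY2 and from -0.86 to -0.49 for AT1G33120. The call of PGY2 in Col was lost without Col hybrid 1 (log2 fold change -0.58), Col hybrid 2 (-1.02) or Col control 2 (-0.66).

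In the L10 family, whose protein completes the large subunit late in its assembly, RPL10C fell in C24 by 1.06 ± 0.20 (adjusted p = 0.00502), from 405 and 495 CPM to 211 and 216. RPL10A fell in C24 by 0.62 ± 0.19 (adjusted p = 0.0365), a call lost in all 4 fits without 1 library (0.0621 to 0.418). In Col neither gene was called, with RPL10C at 296 and 341 in the control and 179 and 249.6 in the hybrid. RPL23AB fell in C24 by 0.70 ± 0.15 (adjusted p = 0.0096), and AT1G70600 of L27a by 0.66 ± 0.18 (adjusted p = 0.0255). RPL10C lost its call without C24 control 2 (adjusted p = 0.0908), and RPL23AB and AT1G70600 lost theirs without any 1 of the 4 C24 libraries (adjusted p from 0.0604 to 0.247 and from 0.0649 to 0.340). Between 5.10% and 13.1% of exon words of RPL10A, RPL10C, AT1G70600, RPL5B, RPS15A and the P1 gene AT1G01100 occur elsewhere, so these genes may share reads with near copies.

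**Figure D3:**
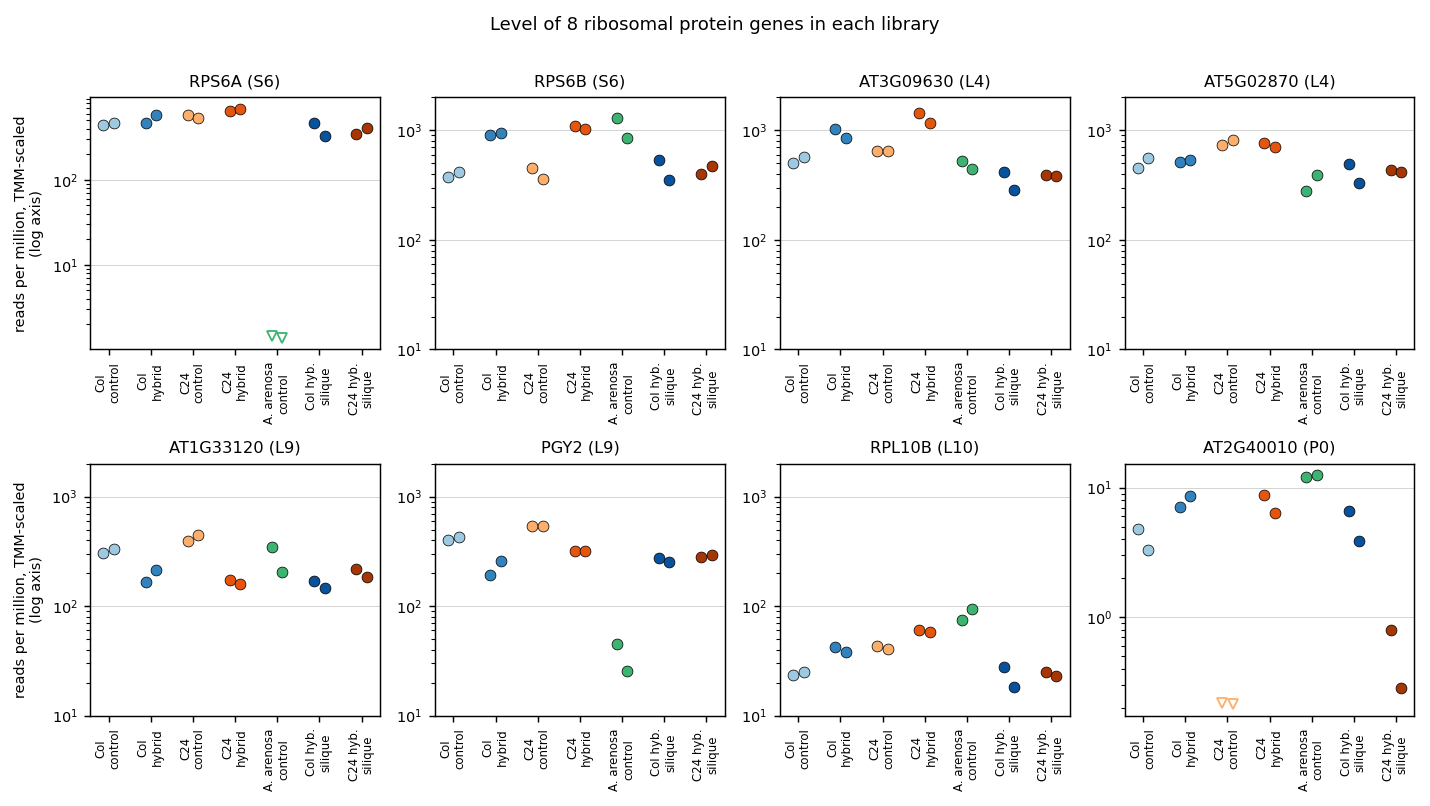
Level of 8 genes in each of the 14 libraries, in CPM on a log axis, with 1 point per library. Open triangles stand at the level of 3 reads for libraries with 3 reads or fewer. RPS6B and AT3G09630 are higher and AT1G33120 and PGY2 lower in hybrid than in A. thaliana control seeds. RPS6A has 1 read in each A. arenosa library, and AT2G40010 has 1 read and 0 reads in the C24 control libraries.

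In the P stalk, all 3 P0 and all 3 P1 genes were examined. AT3G09200 supplied 89.5% ± 0.99 of P0 reads in the Col control and 89.5% ± 1.06 in the Col hybrid (mean ± SD, n = 2). In C24 its share went from 85.2% ± 0.141 to 88.9% ± 0.141 and that of AT3G11250 from 14.8% ± 0.141 to 10.4% ± 0.212. Control and hybrid libraries did not overlap for either share, as for 34 of the 37 members with paralogs in C24. Neither gene was called in either cross. Among P1 genes, which carry factor-binding tails, AT5G47700 was at 206 and 201 CPM in the Col control and 328 and 423 in the Col hybrid, and rose by 0.92 ± 0.17 (adjusted p = 0.0109), though not without Col hybrid 2 (0.126) or Col control 1 (0.0611). AT1G01100 rose in Col by 0.76 ± 0.20 (adjusted p = 0.0334), though not without Col hybrid 2 (0.386) or Col control 1 (0.205), and AT4G00810 was not called in either cross. In C24, AT5G47700 was at 271 and 275 in the control and 337 and 396 in the hybrid and was not called.

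The third P0 gene, AT2G40010, differed between the crosses. It had 75 and 49 reads in the Col control libraries (4.77 and 3.29 CPM), 107 and 70 in the Col hybrid (7.08 and 8.61), 98 and 66 in the C24 hybrid (8.77 and 6.38) and 25 and 27 in A. arenosa (12.1 and 12.5). In the C24 control it had 1 read and 0 reads, where 3 reads stand for 0.219 and 0.213 CPM. C24 control libraries alone were at or under that floor. Summed over libraries, the gene was 212 times higher in the C24 hybrid than in the C24 control (95% exact interval 37.5 to 8409.5, counting error only), and 113 times higher in the Col control than in the C24 control (19.8 to 4481). The log2 change from control to hybrid was smaller in Col than in C24, with a difference of -6.40 ± 0.77 (adjusted p = 0.00746), called in all 8 fits without 1 library, and this was the 1 member of 45 called in that test, where 1.39% of all genes were called (0.414% higher, 0.973% lower). DESeq2 called 2 members, and 7 had an unadjusted p under 0.05. The fitted folds depend on the prior count and are no bound. Whether C24 reads of this gene failed to align to the A. thaliana reference was not tested.

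Shares within families do not depend on library scaling. The median size of the shift from control to hybrid over the 37 members of the 16 families with more than 1 member was 3.75 percentage points in Col and 4.35 in C24. Control and hybrid libraries did not overlap in share for 32 of the 37 in Col and 34 in C24, so a lack of overlap sets no single member apart. No test was run on the shares. RPS6B took 46.2% and 47.2% of S6 reads in the Col control and 65.9% and 62.3% in the Col hybrid, and 44.2% and 40.1% in the C24 control and 63.0% and 60.2% in the C24 hybrid, a shift of 17.4 and 19.4 points within the S6 pair, the largest of the 16 families in both crosses. The leading S6 gene was thus RPS6A in the A. thaliana controls and RPS6B in the hybrids. AT3G09630 took 51.5% ± 1.13 of L4 reads in the Col control and 63.9% ± 3.96 in the Col hybrid, and 45.6% ± 1.84 and 63.8% ± 1.77 in the C24 groups. RPL23AB went from 27.3% ± 0.990 to 21.8% ± 0.919 in Col and from 32.9% ± 0.283 to 22.1% ± 2.12 in C24, and AT1G02780 from 77.4% ± 1.13 to 82.0% ± 0.354 of L19 reads in Col and from 72.3% ± 2.55 to 83.2% ± 1.56 in C24. In the S18 family RPS18A went from 26.6% ± 0.141 to 37.5% ± 2.90 in Col and from 31.2% ± 0.424 to 34.0% ± 0.636 in C24. In the L8 pair the shares overlapped between hybrid and control in both crosses. Shares of paralogs in a family are tied to each other and were not set against other gene families.

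**Figure D4:**
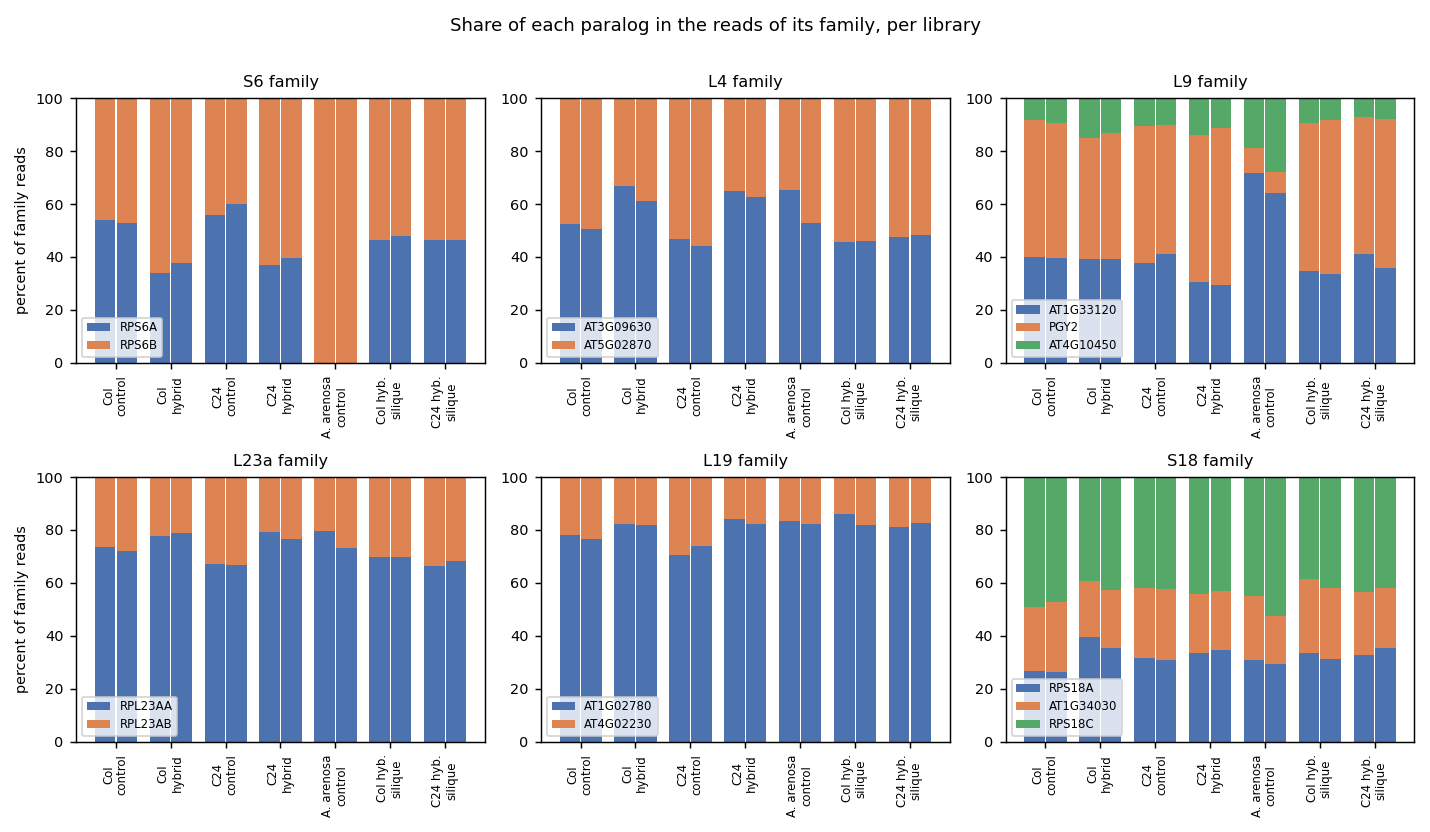
Share of each paralog in the summed reads of its family, in percent, for 6 families, with 1 bar per library and 2 bars per group. RPS6B takes 62.3% to 65.9% of S6 reads in the Col hybrid against 46.2% to 47.2% in the Col control, and nearly all S6 reads in A. arenosa.

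Col and C24 control seeds, which differ in the accession of both mother and pollen parent, differed in 10 members (22.2% against 16.8% of all genes, 7.85% higher and 8.91% lower in Col): AT2G40010 was higher in Col by 6.48 ± 0.64 (adjusted p = 0.000436) and 9 were lower. Reads of both accessions were counted on the same A. thaliana reference. Whether a low count in C24 stands for reads that did not align was not tested. The median of the members was -0.31, against 0.01 for all genes, and 40 of 45 members had a negative value. AT1G70600 was at 297 and 315 CPM in Col and 556 and 603 in C24 (log2 fold change -0.91 ± 0.18, adjusted p = 0.0125), and RPL10B at 23.5 and 25.1 against 42.9 and 40.8 (-0.78 ± 0.12, adjusted p = 0.00355). AT3G11250 of P0, RPS5B and AT4G10450 of L9 were lower in Col by log2 values of -0.71 ± 0.14, -0.69 ± 0.13 and -0.61 ± 0.16. The libraries of the 2 accessions did not overlap for these 5 genes, which were named for their calls, so this is no separate evidence. The count was 1 without Col control 1, 9 without Col control 2, 2 without C24 control 1 and 1 without C24 control 2, and AT2G40010 was the member kept in all 4 fits. AT1G70600 lost its call without Col control 1 (0.0877) and C24 control 2 (0.160). RPL10B, AT3G11250, RPS5B and AT4G10450 lost theirs without Col control 1 (0.0597, 0.153, 0.153 and 0.288), C24 control 1 (0.0619, 0.0975, 0.104 and 0.172) and C24 control 2 (0.157, 0.333, 0.334 and 0.460).

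Between the 2 kinds of hybrid seed, 1 member was called, 1 of 45 against 9.78% of all genes (5.20% higher, 4.58% lower in Col): RPL10B was lower in the Col hybrid (42.8 and 38.4 CPM) than in the C24 hybrid (60.7 and 58.4), by -0.52 ± 0.12 (adjusted p = 0.0249). The call was lost in all 4 fits without 1 library (adjusted p from 0.205 without Col hybrid 1 to 0.699 without Col hybrid 2, and 0.403 and 0.516 without C24 hybrid 1 and 2). The median over the members was -0.12 and 6 had an unadjusted p under 0.05. AT2G40010, at 7.08 and 8.61 against 8.77 and 6.38, overlapped between the hybrids.

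A. arenosa seeds were compared with the mean of the A. thaliana controls, whose libraries also enter the comparisons with the hybrids. Here 8 members were higher and 9 lower, 37.8% against 55.3% of all 21619 genes (24% higher, 31.3% lower), and reads were counted on the genome of the other species, so a low count may stand for a transcript that did not align. Other scalings moved the split to 13 higher and 7 lower (RLE) and 12 and 7 (upper quartile), and the median of the members from -0.03 to 0.12 in both, while the median of all genes moved from -0.24 to -0.09. RPS6A had 1 read in each A. arenosa library and was 962 times lower than in the Col control (95% exact interval 266 to 7943, counting error only). RPS6B was at 1292 and 851 CPM, above all A. thaliana control libraries (362 to 457), with a log2 fold change of 1.38 ± 0.19 (adjusted p = 0.000235). PGY2 was at 44.9 and 25.8 (-3.76 ± 0.28, adjusted p = 7.5e-06) and RPL3B at 13 and 7.38 (-2.66 ± 0.26, adjusted p = 2.97e-05), both below every A. thaliana library. The split of reads between PGY2 and its near copy AT1G33120 is uncertain. The L9 family summed to 486 and 321 in A. arenosa, against 771 to 1092 in the A. thaliana controls. RPL10B was higher by 1.39 ± 0.16 (adjusted p = 8.04e-05), AT1G02780 by 0.95 ± 0.16 (adjusted p = 0.000812) and AT2G40010 by 4.79 ± 0.40 (adjusted p = 1.31e-05). For AT2G40010 that control mean joins unlike groups, the Col control at 4.77 and 3.29 CPM and the C24 control with 1 read in all, against 12.1 and 12.5 in A. arenosa. AT5G47700 (0.94 ± 0.21) and AT5G02870 (-0.92 ± 0.21) lost their calls without A. arenosa control 1 (adjusted p = 0.0695 and 0.0583), and AT5G27850 (-0.80 ± 0.19) kept its call.

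Whole hybrid seeds can be set beside control seeds of both parent species for RPS6B: 362 to 457 CPM in the A. thaliana controls, 915 to 1104 in the hybrids and 851 to 1292 in A. arenosa. For RPL10B the order was 23.5 to 42.9, 38.4 to 60.7 and 75.4 to 94.6, with overlap between controls and hybrids over both crosses. PGY2 stood at 399.5 to 538, 193 to 318 and 25.8 to 44.9. Its near copy AT1G33120 was at 277 ± 102 CPM (mean ± SD, n = 2 libraries) in A. arenosa. The L9 family summed to 486 and 321 there, which overlapped with the hybrids (424 and 543 in Col, 568 and 538 in C24). For AT3G09630, A. arenosa, at 529 and 442, overlapped with the Col control (502 and 576), and the hybrids at 844 to 1434 lay above both. How reads of A. arenosa origin divide between paralogs on the A. thaliana genome was not tested.

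In whole siliques of the hybrids, which hold the seeds and the fruit wall, most of the members that changed were lower than in hybrid seeds. Of the 45, 1 was higher and 16 lower in Col (17 of 45, against 53.2% of all 20700 genes, 29.8% higher and 23.4% lower), and 1 higher and 17 lower in C24 (18 of 45, against 58.8%, 31.9% higher and 26.9% lower). The member medians were -0.38 and -0.46, against 0.05 for all genes in both. Lower in both were 13 members, 81.2% and 76.5% of those lower in Col and C24, where the shares over all genes were 80.9% and 70.6%, and RPL23AB was the gene higher in both (0.62 ± 0.21, adjusted p = 0.0326, and 0.83 ± 0.21, adjusted p = 0.00785). AT3G09630 was at 417 and 285 CPM in Col siliques against 1036 and 844 in seeds (-1.33 ± 0.26, adjusted p = 0.00243), and at 389 and 386 in C24 siliques against 1434 and 1169.8 (-1.64 ± 0.26, adjusted p = 0.000696). RPS6B was lower by -0.98 ± 0.26 (adjusted p = 0.0104) and -1.18 ± 0.26 (adjusted p = 0.00358), and RPL3A by -0.93 ± 0.24 (adjusted p = 0.00943) and -1.17 ± 0.24 (adjusted p = 0.00251). Seed and silique libraries did not overlap for these 3 genes in either cross, and their calls were kept in all fits without 1 library. The S6 share of RPS6B was 51.9% to 53.5% in siliques and 60.2% to 65.9% in hybrid seeds. Seed coat and endosperm markers were lower too: 5 of 5 seed coat markers in Col and 4 of 5 in C24 (median log2 fold change -1.03 and -0.98), and 3 of 4 endosperm markers tested in each cross (-3.19 and -4.13). Of the embryo markers, 2 were tested and none was called in either cross (median -0.52 in Col and 0.17 in C24). The part of these markers in the members' values was not tested.

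The same seed libraries enter the comparisons with the controls. The Col count was 12 without Col hybrid 1, 6 without Col hybrid 2, 21 without Col hybrid silique 1 and 6 without Col hybrid silique 2, and the C24 count was 9, 12, 10 and 13 in the same order of libraries. AT5G27850 and AT2G41840 were lower in Col by -1.19 ± 0.23 (adjusted p = 0.00243) and -1.16 ± 0.26 (adjusted p = 0.00508), and RPL10B in C24 by -1.20 ± 0.22 (adjusted p = 0.00134). RPL23AB lost its Col call without Col hybrid 1 (adjusted p = 0.118), Col hybrid 2 (0.107) or Col hybrid silique 1 (0.205), and its C24 call without C24 hybrid 1 (0.0808). AT2G40010 had 12 and 4 reads in C24 siliques (0.8 and 0.286 CPM) against 99 and 66 in Col siliques (6.57 and 3.87), and was 13.8 times lower in C24 siliques than in C24 seeds (95% exact interval 8.25 to 24.7). Between the siliques it was the 1 member called, higher in Col by 3.22 ± 0.50 (adjusted p = 0.00568), where 4.31% of all genes were called (2.49% higher, 1.82% lower). With only the 2 silique groups in the fit its adjusted p was 0.0562.

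**Figure D5:**
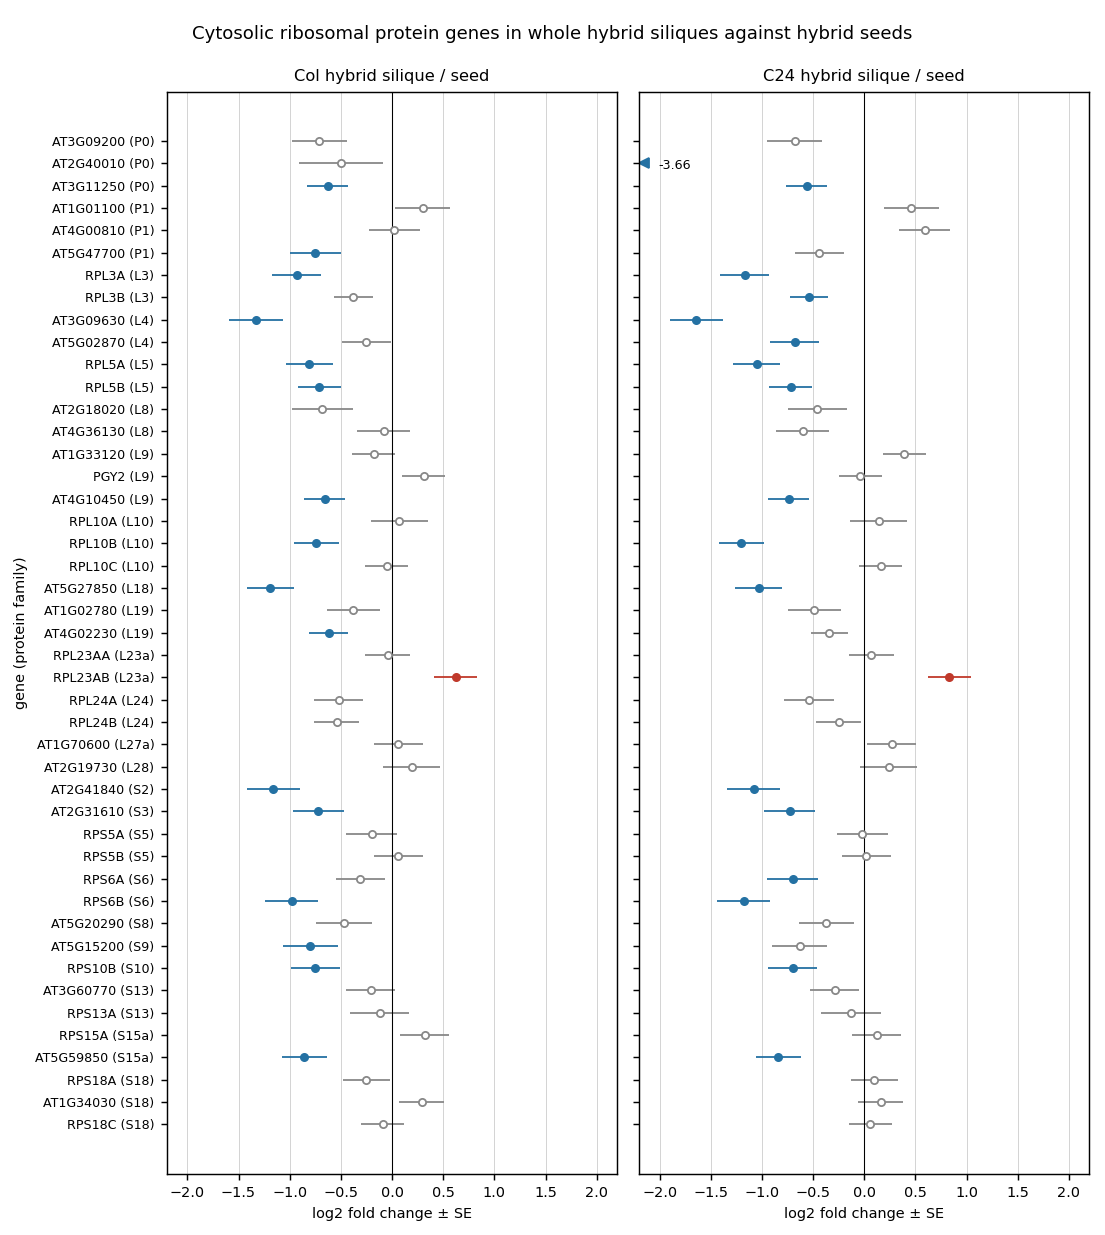
Log2 fold change with its SE for each of the 45 genes in whole hybrid siliques against hybrid seeds of the Col (left) and C24 (right) cross, with 2 libraries per group. Blue points were lower and red points higher at an adjusted p under 0.05, open grey points were not called, and the arrow marks AT2G40010 at -3.66 beyond the axis. RPL23AB is the 1 red point on each side.

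Other genes of ribosome production were set beside the members by lists. Unlike those of the members, calls of list genes were not checked with a library left out or under other settings. A list of 281 tested genes whose RefSeq product name includes a ribosomal protein or ribosomal protein family, some of them family members that are not ribosomal proteins, had 99 higher and 9 lower in the Col hybrid (38.4%, against 16.8% of all genes, median 0.44) and 65 higher and 54 lower in the C24 hybrid (42.3%, against 31.8%, median 0.01). Of 29 nucleus-encoded plastid ribosomal protein genes, 10 rose in the Col hybrid (34.5%, against 10.4% of all genes higher and 16.8% called either way). In the C24 hybrid 7 rose (24.1%, against 16.8% of all genes higher and 31.8% called either way). None fell in either hybrid. All 29 were higher in siliques of both crosses, where 29.8% and 31.9% of all genes were. Of 13 ribosome biogenesis genes, 3 rose and 1 fell in Col (30.8%, against 16.8% of all genes) and 3 rose and 2 fell in C24 (38.5%, against 31.8%, a share near that of all genes). GAR1, a protein of the pseudouridine-guiding snoRNPs, rose in both, by 1.53 ± 0.12 (adjusted p = 0.000412) and 0.89 ± 0.12 (adjusted p = 0.00137), and FIB2, a fibrillarin of the methylation-guiding snoRNPs, by 0.94 ± 0.18 (adjusted p = 0.0117) and 0.84 ± 0.18 (adjusted p = 0.00852). SWA2, a nucleolar protein needed in the female gametophyte, fell in both, by 0.54 ± 0.12 (adjusted p = 0.0213) and 0.86 ± 0.12 (adjusted p = 0.00161).

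Of 15 translation factor genes, 3 rose and 2 fell in the Col hybrid (33.3%, against 16.8% of all genes) and 4 rose and 3 fell in the C24 hybrid (46.7%, against 31.8%). TCTP1, a growth-promoting protein, rose by 0.81 ± 0.13 in Col (adjusted p = 0.00642) and by 0.62 ± 0.13 in C24 (adjusted p = 0.00832), and the ELF5A gene AT1G13950 fell by 1.02 ± 0.23 (adjusted p = 0.0205) and 1.05 ± 0.23 (adjusted p = 0.0101). A list of 7 genes held members of TOR signalling, the pathway that couples nutrients to ribosome production, and regulators outside it. None was called in Col, and 4 rose and 1 fell in C24 (71.4%, against 31.8% of all genes). Of the pathway, those that rose were TOR (0.75 ± 0.18, adjusted p = 0.013), RAPTOR1B (0.42 ± 0.12, adjusted p = 0.024) and S6K2 (0.86 ± 0.27, adjusted p = 0.0417). Of the regulators, ANAC082, a NAC factor of the ribosomal stress response, rose by 1.54 ± 0.24 (adjusted p = 0.00251) and TCP20, a factor reported to bind site II elements, fell by 0.72 ± 0.18 (adjusted p = 0.016). In the test of the difference between the crosses none of the biogenesis, translation factor, TOR and regulator or plastid genes was called, while of the 281 other ribosomal protein genes 8 were called, all with a positive difference, Col less C24 (2.85%, against 1.39% of all genes).

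Markers of seed tissues differed between the groups as well. The 5 seed coat markers summed to 6406 and 6854 CPM in the Col control and 3457 and 4115 in the Col hybrid, and to 9543 and 10627 in the C24 control and 4293 and 5253 in the C24 hybrid, with 3 of 5 lower in each cross. The 3 markers of photosynthetic tissue summed to 688 and 852 against 1849 and 1674 in Col and to 639.6 and 472 against 2100 and 1489.7 in C24, all 3 higher in each cross, and to between 11649 and 20698 in siliques. The 5 endosperm markers summed to 73.6 and 90.2 against 127 and 205 in Col, with 1 higher and 1 lower. Their median log2 fold change in Col was -0.52, so the sum and the median went opposite ways. In C24 they summed to 57.3 and 47.4 against 306 and 118 (3 higher, 1 lower, median 2.42). The 4 embryo markers summed to between 27.4 and 324 in A. thaliana control and hybrid seeds. Of 3 tested, 1 was higher in Col, and 1 was higher and 1 lower in C24. The medians of these 3 were -1.45 in Col and -1.84 in C24. The 4 fruit wall markers summed to between 252 and 320.2 in A. thaliana control and hybrid seeds, with none called in the hybrids. In siliques against seeds 3 were higher and 1 lower in each cross. In A. arenosa, labelled as seed, endosperm markers PHE1, MINI3 and IKU2 and embryo markers WOX2 and WOX8 were at 0 reads, the seed coat markers summed to 564 and 406 and the 2 pollen markers to 899 and 6531, against 0.994 to 15.5 in A. thaliana and hybrid seeds. The 4 embryo markers together summed to 541 and 302 CPM in A. arenosa, though 3 and 2 of them had 0 reads in libraries 1 and 2. Of the 3 tested, 1 was higher and 2 were lower there than in the A. thaliana controls (median log2 fold change -5.24). The part of these differences in the members' values was not tested, and in such bulk samples fewer cells of a type and less RNA per cell cannot be told apart.

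Gene reads per library ranged from 8931520 to 16149496 outside A. arenosa and were 1777781 and 2089616 in A. arenosa, so that 3 reads stood for 0.176 to 0.369 CPM in the former and 1.38 to 1.45 in the latter. Col control 1 and C24 control 1 had reads at 31430 and 28243 loci, against 23123 and 23105 in their second libraries. Without replicate 1 of both controls, 1 member was called in Col and 9 in C24. Loci annotated as ribosomal RNA held 0.0441% to 0.380% of gene reads in the A. thaliana control seeds and 0.740% to 0.783% in the hybrid seeds. The part of these library differences in the members' values was not tested.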

How the data were processed

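Poly-A RNA was converted with random primers and fragmented enzymatically, per the labels' protocols, which state no strand marking. The authors aligned reads with BWA to TAIR10, per the submitters' processing notes, and deposited whole-number read counts per locus. The counting rule is not given in the sources used here. No value column was left unmapped. The transposable element table was not used here. Multiply mapped reads and the A. arenosa genome in hybrids may affect counts of paralogs.

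The deposited counts went into edgeR 4.0.16 under R 4.3.3 (quasi-likelihood test, trimmed mean of M values, filterByExpr, Benjamini-Hochberg over all genes, threshold 0.05). One fit held the 4 A. thaliana-mother seed groups, one added A. arenosa and one held the 4 hybrid groups. Each SE is the log2 fold change over the root of its F statistic. DESeq2 1.42.0, other scalings, no filter, other sample sets, a replicate block and each library left out were alternatives. The fits were tested on simulated data. Named are up to 5 called members with the highest and 5 with the lowest fold changes per comparison, members called in the difference between crosses, and all P0 and P1 genes. In addition, genes called in both hybrids and genes of the lists were named after their values were seen. Genes named for a call tend not to overlap between groups, so a lack of overlap among them is no separate evidence. The members and lists were chosen with earlier results of these data known. With Biopython 1.88, names, exon lengths, 31-base words and upstream windows come from RefSeq TAIR10.1, which matched 32835 loci of the table. Library pairs differed by more than sampling noise, and each was kept as a replicate. Intervals and floors cover counting error only.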

Additional observations from a re-analysis of the deposited data

Results flagged for a closer look

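For AT2G40010, a P0 gene, the change from control to hybrid differed between the 2 crosses by -6.40 (Col less C24, log2 scale, edgeR test of that difference, adjusted p = 0.00746). Between the control seeds the gene was higher in Col by 6.48, while the libraries of the 2 hybrids overlapped. The C24 control held 1 read in all, against 124 in the Col control, 164 in the C24 hybrid and 52 in A. arenosa. C24 siliques held 16 reads.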

How the results depend on the processing

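None of the 633 alternative values of named members changed sign, 547 kept their call and 86 lost it. The counts of members called stayed within 1.5 times in 83 of 118 alternatives. In Col hybrid against control (18 called), only the groups compared gave 8, all 7 groups 2, and leaving out replicate 1 of both controls 1. In C24 (22 called), all 7 groups gave 11 and leaving out replicate 1 of both controls 9. The difference between the crosses (1) became 2 with DESeq2. Col hybrid against C24 hybrid (1) became 5 with DESeq2 and 0 with no filter, only the groups compared or all 7 groups. The controls (10) gave 6 with upper quartile scaling, 6 with no filter, 3 when all 7 groups were fitted, and 1 once replicate 1 of each was left out. A. arenosa (17) gave 26 with DESeq2 and 11 without replicate 1 of both controls. Between siliques (1), only the groups compared gave 0. Leaving out single libraries gave 2 to 14 called in Col, 5 to 8 in C24, 0 in each fit for the 2 hybrids, 1 to 9 for the controls, 12 to 18 for A. arenosa, 6 to 21 for Col siliques, 9 to 13 for C24 siliques and 1 in each fit for the difference between crosses and for the siliques. The causes were not tested.

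The labels give groups the same replicate numbers but state no pairing, and deviations of same-numbered libraries correlated between -0.418 and 0.282. With a replicate block, 19 members were called in Col, 22 in C24, 1 in the difference, 1 between hybrids, 12 between controls, 17 in A. arenosa, 16 and 16 in siliques against seeds and 1 between siliques. With 2 libraries a group, a member not called is not shown to be equal, and A. arenosa, the shallowest group, limits low members most.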
